A study of Solanum tuberosum with 136 samples.

Results

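The step from week 6 to week 9 of storage was examined in primary buds of Russet Burbank potato tubers (Solanum tuberosum) kept in air. Its members were the 4 libraries labelled as control primary bud of week 9 and the 4 labelled as control primary bud of week 6, chosen by their titles: 8 libraries, or 2 of the study's 34 groups of 4. The study held tubers under ethylene (10 ppm) or in air as the control, and sampled primary bud and flesh over 18 weeks. Buds under ethylene and control flesh of the same weeks, and control buds of the other weeks, serve below for comparison. The labels give 1 cultivar for all groups and name no agent other than ethylene, and storage temperature is not among them. The labels do not say whether the 4 replicates came from separate tubers or how many tubers were pooled. The p-values therefore measure the spread between libraries, which may be technical. In the main tests across genes that spread is estimated over all groups of a fit, not from the 8 libraries alone. Sampling week and anything handled by sampling day cannot be told apart.

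The buds of a potato tuber sit in its eyes and are dormant at harvest: their meristems hold back growth although the flesh around them is full of starch and storage protein. Dormancy ends gradually during storage, after which the bud resumes cell division and grows into a sprout. Ethylene gas is used in storage as a sprout suppressant. The deposited files do not pair gene IDs with gene names, so genes are given by ID only, no role is given to any of them, and no sequence is shown.

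The week 9 libraries held between 24.4M and 45.7M counts (M, counts in units of 1e6) and the week 6 libraries between 37M and 49.9M. Libraries of week 9 had 17379 to 17635 genes at 1 CPM or more (CPM, counts scaled to a common library total of 1e6), against 17892 to 18169 genes at week 6. Counts were more concentrated at week 9, where the 100 genes with most counts held 25% to 26% of a library, against 21.6% to 22.2% at week 6. Correlations of log2 levels ran from 0.982 to 0.993 between libraries of the same week and from 0.974 to 0.983 between weeks (a description across genes). The first principal component of the 8 libraries held 43.5% of the variance and separated the weeks. The second held 23.2% and ran in order from replicate 1 to replicate 4 in both weeks. A library outside the step stands apart and shares the fit that estimates each gene's spread: replicate 1 of the buds of week 17 taken out of ethylene had a mean correlation of 0.885 with its group, the lowest of the 68 bud libraries. The counts of called genes for the step and for the differences of changes are given with and without it below.

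Between week 6 and week 9 about as many genes were called higher as lower in control buds in the main fit, mostly by less than 2-fold. The scaling of the counts assumes that most genes do not change, which favours an even split. Of 24328 genes tested, 4690 passed the threshold (19.3%; edgeR quasi-likelihood test, Benjamini-Hochberg adjusted p under 0.05), with 2360 higher at week 9 (9.7%) and 2330 lower (9.58%). On simulated counts this test made more wrong calls than its threshold allows, so these and the gene counts below are not held to that rate. Without the week 17 library that stands apart, 6333 genes passed, 2804 higher and 3529 lower. In a fit of the 8 libraries alone 2706 were higher and 2602 lower, so the balance depends on the fit. The median called gene was 1.49-fold higher or 1.58-fold lower. Large changes were more often downward, since 634 genes were at least 2-fold lower and 370 at least 2-fold higher, and 220 against 68 passed 4-fold. The genes that rose were mostly abundant ones: when genes were split by mean level into 4 sets of equal size, 1476 were higher and 770 lower in the top set, and in each of the 3 other sets more genes were lower than higher. The genes called higher held 45.6 ± 0.67% of the counts of week 9 libraries and 34.4 ± 0.29% of those of week 6 libraries, and the genes called lower held 7.25 ± 0.094% at week 9 and 12.9 ± 0.32% at week 6 (SD, n = 4 each; these shares describe genes chosen on the same libraries). The 4 libraries of week 9 lay entirely above the 4 of week 6 in 2053 of the 2360 genes called higher and in 2834 of all genes tested (11.6%). They lay entirely below in 1903 of the 2330 called lower and in 2866 of all (11.8%).

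**Figure D1:**
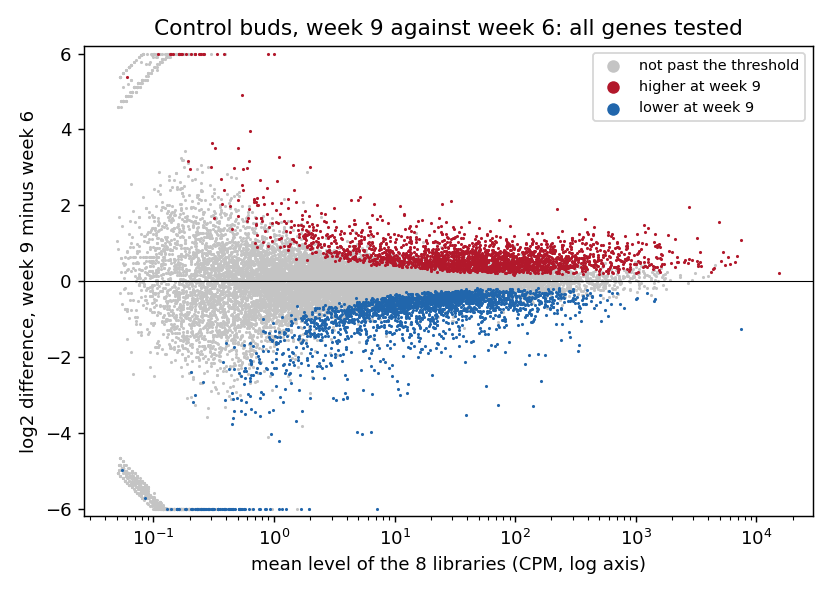
Each point is a gene tested in control buds, placed by its mean level over the 8 libraries of weeks 9 and 6 (CPM, log axis) and its log2 difference, week 9 minus week 6; differences beyond 6 are drawn at 6, and genes with a mean under 0.05 CPM are left out. The 2360 genes higher at week 9 crowd at high levels close to 0, while the 2330 lower ones reach further from 0.

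Among called genes with at least 5 CPM in the higher week and no overlap between the weeks, the largest rise was that of Soltu.DM.06G027310. It had 7.6, 6, 9.57 and 11.1 CPM in the 4 libraries of week 9, against 2.43, 1.87, 1.89 and 0.999 CPM in those of week 6. Every library of week 9 was above every library of week 6, with a log2 difference of 2.22 (SE 0.26, edgeR adjusted p = 7.93e-10). The gene was also at 4.16 ± 0.31 CPM in week 3 and at 2.23 ± 0.72 CPM in week 12 (SD, n = 4), so that week 9 was its highest point in storage.

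The rise that added most counts was in Soltu.DM.04G027270, an abundant RNA of the bud. Its level was 12200, 9540, 9490 and 9060 CPM at week 9, against 5060, 4470, 4510 and 5120 CPM at week 6. The weeks did not overlap, and the log2 difference was 1.07 (SE 0.15, edgeR adjusted p = 5.73e-08). In the control buds of the other weeks its group means lay between 2730 and 4120 CPM, below both.

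By the same rule, the largest fall was in Soltu.DM.12G001560, a gene that was almost confined to week 6 in control buds. Week 9 had 9 counts in all, every one in replicate 3 (0.386 CPM), and 0 in the other libraries, against 13.7, 13.9, 14.6 and 14.2 CPM at week 6. The log2 difference was -7.3 (SE 0.97, edgeR adjusted p = 4.16e-08). Its size rests on replicate 3 of week 9: without that library week 9 is at 0 and the fitted value, -11.97, is no measure of size. It averaged 0.952 CPM in week 3 and 0.374 CPM in week 12, and had no count at weeks 0, 15, 16, 17 and 18.

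The fall that removed most counts was in Soltu.DM.09G027700. Its level was 4940, 4120, 4230 and 4450 CPM at week 9, against 9310, 11100, 11100 and 10900 CPM at week 6. No library of week 9 reached any of week 6, and the log2 difference was -1.26 (SE 0.25, edgeR adjusted p = 0.000136). The level of week 9 was still above that of week 12, at 1830 ± 176 CPM, and of week 3, at 1510 ± 150 CPM (SD, n = 4).

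**Figure D2:**
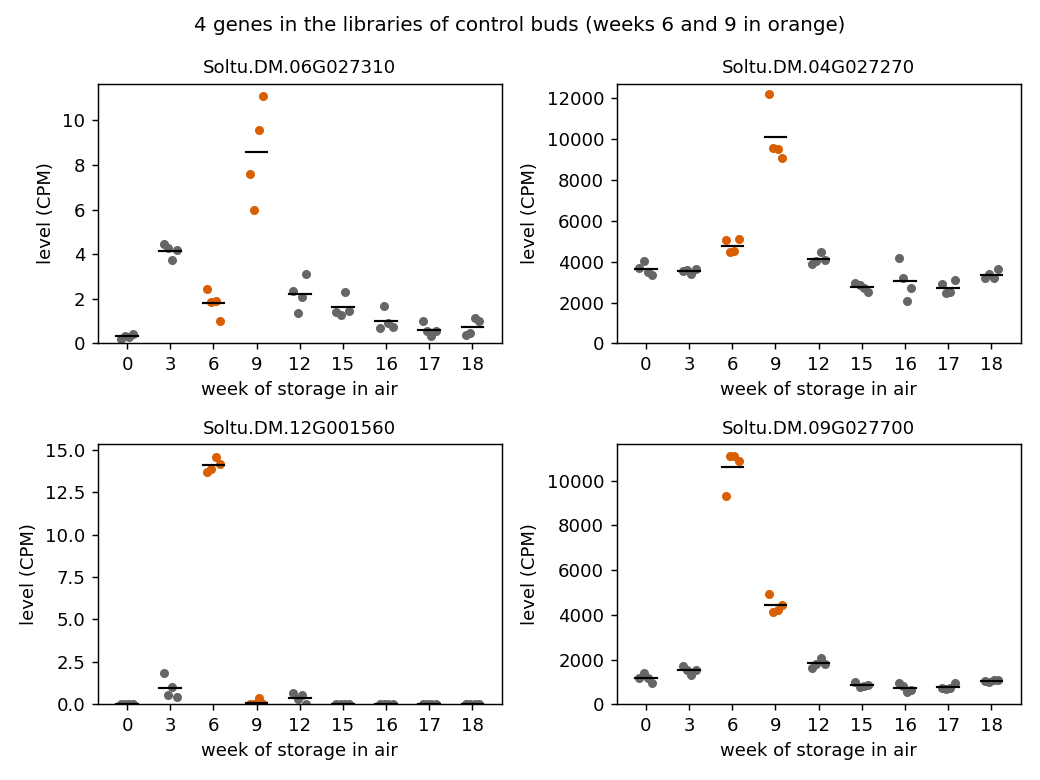
Levels (CPM) of the 4 genes in each control bud library by week of storage in air; points are libraries, bars are means of 4, and weeks 6 and 9 are in orange. The 2 genes in the upper row have their highest mean at week 9, and the 2 in the lower row at week 6.

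Some genes had counts in 1 week and none in the other. Of 32878 genes, 8973 had no count in any of the 8 libraries. There were 82 genes with counts in all 4 libraries of week 6 and none at week 9. Separately, 27 genes with no count at week 9 had a mean of 1 CPM or more at week 6, whether or not in every library. For 2 genes with no count at week 6, the mean at week 9 was 1 CPM or more. The reverse, counts in all 4 libraries of week 9 and none at week 6, held for 5 genes, which were named after their values were seen. Soltu.DM.01G040780 had 77, 38, 38 and 56 counts at week 9, at least 110-fold higher when the week 6 group is set at 3 counts (edgeR adjusted p = 8.71e-07). Soltu.DM.02G025610 had 55 counts over the 4 libraries of week 9 (edgeR adjusted p = 0.0271) and Soltu.DM.03G035680 had 40 (edgeR adjusted p = 0.00738). Soltu.DM.02G006590, with 29 counts, and Soltu.DM.12G018100, with 21, did not pass the filter on low counts and were not tested. Replicates 2, 3 and 4 of week 9 held 24.4M, 26.9M and 26.4M counts, against 37M or more in every week 6 library. Fewer counts make a 0 likelier for a low gene. The part that depth has in the contrast between 82 and 5 genes was not tested.

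Fewer genes passed in this step than in the step before it or the step after it. From week 3 to week 6, 12711 genes passed (52.2% of those tested; 6656 higher at week 6 and 6055 lower), and from week 9 to week 12, 10727 passed (44.1%; 6244 higher at week 12 and 4483 lower). Since neighbouring steps share libraries, the difference between the steps was tested. The change from week 6 to week 9 differed from that of the step before in 9111 genes (37.5%; 4133 with the higher value in the later step and 4978 with the lower). It differed from that of the step after in 7084 genes (29.1%; 3411 with the higher value in the step from week 6 to week 9 and 3673 with the lower). Without the week 17 library that stands apart these counts were 10628 and 8653. The difference from the step before was 3.4 on the log2 scale for Soltu.DM.06G027310 (SE 0.48, edgeR adjusted p = 3.66e-08) and -4.06 for Soltu.DM.09G027700 (SE 0.42, edgeR adjusted p = 1.07e-11). Both were chosen among genes whose control bud libraries of weeks 9 and 6 do not overlap, and those libraries enter this test. A large difference was therefore favoured in advance.

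Among genes whose change was lower than in the step after, the largest loss of counts was in Soltu.DM.05G025110. This gene had 1190, 1160, 1160 and 1160 CPM at week 9, against 1820, 1620, 1680 and 1560 CPM at week 6, and 1310 ± 28.6 CPM at week 12. Every library of week 9 was below every library of week 6, and the gene's change was 0.68 lower on the log2 scale than that of the next 3 weeks (difference -0.68, SE 0.11, edgeR adjusted p = 1.75e-06). The gene was chosen on these same libraries, so a difference was favoured in advance.

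The genes of the step were also followed through the other weeks of control buds. Week 9 was the highest of the 9 control bud weeks for 1171 of the 2360 genes called higher, and the lowest for 868 of the 2330 called lower (a description, since week 9 chose the genes). In week 12 against week 3, libraries that enter neither side of the step, 29.8% of all genes passed. Of the genes higher in the step, 789 were higher there and 252 lower (33.4% and 10.7% of them), against 17.7% and 12.2% of all genes. Of the genes lower in the step, 492 were lower and 309 higher (21.1% and 13.3%). Between the ends of storage, week 18 against week 0, where 50.3% of all genes passed, the genes higher in the step were split into 910 higher and 620 lower (38.6% and 26.3%, against 28% and 22.3% of all genes). Those lower in it were split into 765 lower and 606 higher (32.8% and 26%).

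A position along storage was computed for each library from log2(CPM + 2). It is 0 at the mean of control buds of week 0 and 1 at that of week 18. The axis used 2977 genes at least 2-fold apart between those weeks by mean log2(CPM + 2), a scale on which low genes differ less. The week 9 buds were at 0.618, 0.57, 0.555 and 0.512, against 0.539, 0.512, 0.472 and 0.457 in week 6 buds. The ranges overlapped, and the means of 0.564 ± 0.044 and 0.495 ± 0.037 (SD, n = 4 each) differed by 0.069 (two-sided exact permutation test, p = 0.0571; the smallest possible p is 0.0286). That test ignores replicate numbers, and by it the difference did not pass the 0.05 level. In both weeks the position fell in order from replicate 1 to replicate 4. Each week 9 library was above the week 6 library of the same number. An exact test over 4 pairs cannot pass 0.05 either, so a difference along this axis was not decided.

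The same 3 weeks gave fewer calls in buds under ethylene. There, 145 of 24328 genes passed between weeks 9 and 6 (0.596%; 83 higher at week 9, or 0.341%, and 62 lower, or 0.255%; 3191 at an unadjusted p under 0.05). This count is loose: 675 genes passed without the week 17 library that stands apart and 764 by DESeq2, and 92, 66 and 67 without ethylene replicate 1, 2 or 3 of week 9, and 96 and 48 without replicate 3 or 4 of week 6. These libraries share none with the control step. Among the 2360 genes higher in control buds, 62 were also called higher under ethylene and 2 lower, which is 2.63% of the control list and 74.7% of the ethylene list. Their median log2 difference under ethylene was 0.14, against -0.02 for all genes, and 77.4% of them were above 0, against 41.8% of all genes. Among the 2330 genes lower in control buds, 19 were called lower under ethylene and none higher, 0.815% of the control list and 30.6% of the ethylene list, with a median of -0.11. A change that differed between control and ethylene buds was found for 1515 genes (6.23%), 838 with the higher change in control buds (3.44%) and 677 with the lower (2.78%). Without the week 17 library 2870 genes passed, 1348 with the higher change and 1522 with the lower, and a fit of the 4 groups alone also had fewer higher (1018) than lower (1087), so which direction holds more genes depends on the fit.

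By the naming rule, the 4 genes named above were also chosen for that test. The rule takes only genes whose control bud libraries of weeks 9 and 6 do not overlap. It makes 1 choice in each direction by the difference in mean CPM between those weeks. A larger change in control buds was therefore favoured in advance. Soltu.DM.06G027310 had 1.36, 4.72, 3.13 and 5.14 CPM in ethylene buds at week 9, against 3.32, 7.8, 4.8 and 3.76 CPM at week 6, overlapping ranges, and its change was 2.67 higher in control buds (log2, SE 0.36, edgeR adjusted p = 8.39e-07). Soltu.DM.04G027270 stood at 8550 ± 314 CPM at week 9 and 7910 ± 787 CPM at week 6 under ethylene (SD, n = 4 each), so week 6 ethylene buds were already closer to the level of week 9 control buds than week 6 control buds were. The difference of changes for this gene was 0.96 (SE 0.21, edgeR adjusted p = 0.00136). Soltu.DM.12G001560, nearly absent from week 9 control buds, was at 10.3, 2.24, 3.4 and 1.97 CPM in week 9 ethylene buds, against 14.2, 5.26, 3.66 and 4.26 CPM at week 6. Its change was lower in control buds by a log2 difference of -6.66 (SE 1.32, edgeR adjusted p = 0.000551), and by -11.32 in the fit without control replicate 3 of week 9, with the same limit on its size. Soltu.DM.09G027700 had 9110 ± 2530 CPM at week 9 and 10000 ± 2020 CPM at week 6 under ethylene, with a difference of changes of -1.12 (SE 0.36, edgeR adjusted p = 0.0438). That call is near the threshold: it was lost in 10 of 16 fits that left out a library of the 4 groups, with edgeR adjusted p between 0.0239 and 0.135 over the 16.

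**Figure D3:**
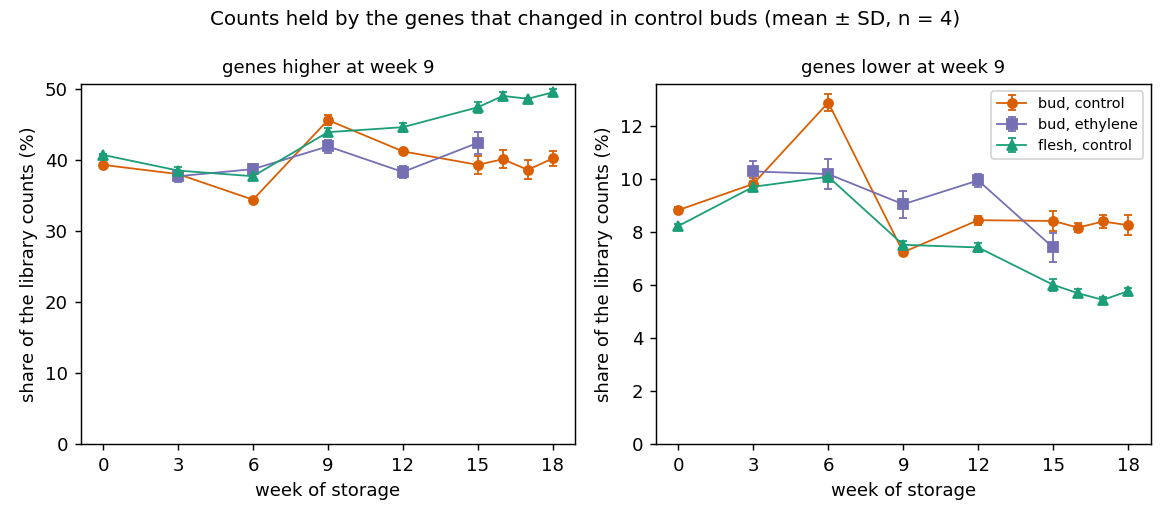
Share of a library's counts (%, mean ± SD, n = 4) held by the 2360 genes called higher (left) and the 2330 called lower (right) at week 9 in control buds, by week of storage, for control buds, buds under ethylene (weeks 3 to 15) and control flesh. Control buds of weeks 6 and 9, which chose the genes, are the extremes of the bud curves.

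In control flesh, the storage tissue under the bud, the step went the same way for many of the same genes. Of 21718 genes tested in flesh, 3267 passed between weeks 9 and 6 (15%; 1685 higher at week 9, or 7.76%, and 1582 lower, or 7.28%), in libraries that share none with the buds. A fit of those 2 flesh groups alone called 6193 genes. Of the bud genes called higher, 2325 were tested in flesh, and 956 of them were higher there (41.1%, and 56.7% of the flesh list) and 25 lower. Of those called lower, 2191 were tested, and 694 were lower (31.7%, and 43.9% of the flesh list) and 9 higher. The medians in flesh were 0.28 and -0.33 on the log2 scale, against -0.01 for all genes, and 83.7% of the higher bud genes were above 0, against 45.6% of all genes. In flesh the genes called higher in buds held 43.9 ± 0.56% of counts at week 9 and 37.7 ± 0.36% at week 6 (SD, n = 4 each).

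**Figure D4:**
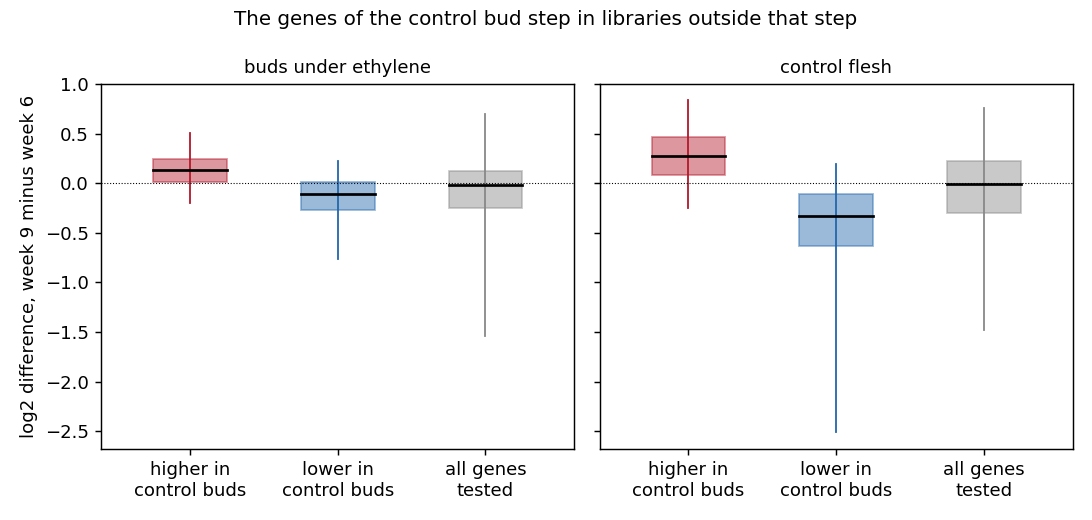
Log2 difference, week 9 minus week 6, in buds under ethylene (left) and control flesh (right), for the genes higher in control buds, those lower in control buds and all genes tested; boxes are interquartile ranges, black bars are medians and lines run from the 5th to the 95th percentile. The medians of the genes higher and lower in control buds are 0.28 and -0.33 in flesh, and 0.14 and -0.11 under ethylene.

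The change differed between control bud and control flesh for 674 of 24835 genes (2.71%), 460 with the higher change in bud (1.85%) and 214 with the lower (0.862%). Without the week 17 library 1087 genes passed, and in a fit of the 4 groups alone 2026. Genes named for this test were also chosen by the naming rule, which favoured a large change in control buds in advance. Soltu.DM.06G027310 also rose in flesh, with 35.3, 39.3, 37.7 and 38.8 CPM at week 9, against 16.9, 15.2, 17.2 and 10.9 CPM at week 6 (log2 difference 1.35, SE 0.23, edgeR adjusted p = 9.22e-06), and its difference of changes was 0.86 (SE 0.42, edgeR adjusted p = 0.38). Soltu.DM.12G001560 had no count in any flesh library of the 2 weeks. Soltu.DM.04G027270 was among the 460, at 5710 ± 120 CPM in flesh at week 9 and 5200 ± 396 CPM at week 6 (SD, n = 4 each), with a difference of changes of 0.92 (SE 0.18, edgeR adjusted p = 0.000372). Soltu.DM.09G027700, at 788 ± 26.6 CPM at week 9 and 691 ± 42.6 CPM at week 6 in flesh, had a difference of -1.46 (SE 0.28, edgeR adjusted p = 0.000211). Soltu.DM.01G001550 had 3.01, 3.47, 2.06 and 2.91 CPM in week 9 buds, against 10.4, 11.6, 8.65 and 10.2 CPM in week 6 buds. Flesh had 2.11 ± 0.59 CPM of it at week 9 and 1.94 ± 0.71 CPM at week 6, and the difference of changes was -1.98 (SE 0.48, edgeR adjusted p = 0.00639).

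Soltu.DM.01G019850 fell in both tissues, by more CPM in buds and by a larger fold in flesh. Buds had 75.3, 67.6, 71.3 and 66 CPM at week 9, against 151, 200, 178 and 192 CPM at week 6. Flesh had no count in any library at week 9, against 19.2, 23, 20 and 14.3 CPM at week 6, at least 639-fold lower when week 9 is set at 3 counts in the whole group. In control flesh the gene was low outside week 6. It averaged 0.115 CPM at week 0, 1.16 CPM at week 3 and 0.237 CPM at week 15, with no count at weeks 12, 16, 17 and 18. The change differed between the tissues (edgeR adjusted p = 0.0132), and a fitted size is not given because of the group at 0.

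Genes that mark the bud against the flesh were mostly lower or not called. A list of 590 genes was made at week 0, a week that does not enter the step. Members were at least 8-fold higher in bud than in flesh, at an adjusted p under 0.05. Their mean in bud was 5 CPM or more. Of them, 152 were lower at week 9 (25.8%, against 9.58% of all genes) and 17 higher (2.88%, against 9.7%). All genes are an unlike background, since they include low genes, which were called less often. From the lowest to the highest of the 4 sets by mean level, of 6082 genes each, 149, 540, 871 and 770 were lower. In that order 93, 295, 496 and 1476 were higher. The median log2 difference of the list was -0.44, against 0 for all genes of that fit. Its summed level was 9170, 9540, 11300 and 13500 CPM at week 9, against 11000, 12100, 13700 and 16700 CPM at week 6, so the sums overlapped. In both weeks they rose from replicate 1 to replicate 4, and each week 9 library was below the week 6 library of the same number. The sums were not tested. Flesh libraries reached only 970 to 1310 CPM at week 9 and 1530 to 1950 CPM at week 6, below every one of the 8 bud libraries. In bulk tissue, fewer cells of a type and less RNA per cell cannot be told apart. With the tissues exchanged, the same conditions gave 22 genes at least 8-fold higher in flesh. These 22 had 2 members higher and none lower in the bud step. They summed to 95 ± 13.4 CPM in week 9 buds and 93.5 ± 11.4 CPM in week 6 buds (SD, n = 4 each), against 781 to 964 CPM in flesh. A wider flesh list, by those conditions but at 4-fold or more, had 100 genes and was chosen after the values were seen. It had 26 members higher and 4 lower. The list summed to 3970 to 4260 CPM in week 9 buds and 2560 to 3200 CPM in week 6 buds, without overlap. In flesh itself that list summed to 8690 to 9340 CPM at week 9 and 10600 to 12200 CPM at week 6. Over the 8 bud libraries 1 gene of the bud list, none of the 22 and 1 of the wider list had no count. The part that the share of flesh in the dissected bud has in these changes was not tested.

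Called genes were also looked up by their place in ID order, as a description with no test. The next tested gene was also higher for 14.7% of the genes called higher, against 9.72% of all genes, and also lower for 14% of those called lower, against 9.59%. There were 17 runs of 4 or more neighbours called in the same direction, 11 of them lower and 6 higher. The longest had 6 genes each, 1 on chromosome 3, 1 on chromosome 7 and 1 on chromosome 8 by the numbers in their IDs, and all were lower. The run on chromosome 3 had log2 differences from -1.96 to -0.52, and its summed mean level was 70.6 CPM at week 9 and 180 CPM at week 6. Another run on chromosome 3, of 4 genes, was higher by 0.88 to 1.06 on the log2 scale and summed to 4050 CPM at week 9 and 2150 CPM at week 6. Neighbouring genes can be near-identical copies, and the sources used here do not give how reads shared by copies were counted, so single members of a run are uncertain. Over the 12 chromosomes the share of tested genes called higher ran from 7.7% to 10.8% and the share called lower from 8.21% to 11.4%.

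Transcript shares were compared for the genes with several transcripts in the second table. Of 5690 genes tested, 181 passed the F test of edgeR's transcript usage method (3.18%) and 31 its more cautious Simes test (0.545%), all 31 within the 181. On simulated counts the F test made more wrong calls than its threshold allows, so the 181 are not held to that rate. The number of calls depended on the fit: the F test called 36 genes in the 8 libraries alone (with an older estimate of the spread, since the newer one could not be fitted), 354 in all bud libraries with that older estimate, 99 without replicate 1 of week 9, and a number equal to 2.07% of the 5690 genes without replicate 1 of week 6. Among the 181, 34 were also called higher in summed level and 27 lower (33.7% together, against 23.9% of all genes tested for usage), and 120 had no such call. The leading transcript differed between the weeks in 68 of the 181 and in 4 of the 31.

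Soltu.DM.01G017660 changed its leading transcript with the smallest p. Its transcript Soltu.DM.01G017660.5 held 0.485%, 10.6%, 1.03% and 1.5% of the gene's counts at week 9, against 98.8%, 98.8%, 91.6% and 95.1% at week 6 (edgeR adjusted p = 3.69e-16 by the F test and 1.68e-07 by the Simes test). Soltu.DM.01G017660.3 took its place at 72.3 ± 18.8% in week 9, against 3.64 ± 3.82% in week 6 (SD, n = 4 each). In other groups the share of Soltu.DM.01G017660.5 varied widely between replicates, for example from 4.34% to 92.3% in control buds of week 0 and from 1.44% to 94.8% in ethylene buds of week 9.

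Soltu.DM.11G004900 had a smaller shift and kept its leading transcript. Its transcript Soltu.DM.11G004900.2 held 97.8%, 96.6%, 97.4% and 96.9% at week 9, against 67.7%, 75.2%, 75.8% and 60.2% at week 6 (edgeR adjusted p = 2.77e-06 by the F test and 5.18e-06 by the Simes test). Single libraries of other weeks covered both levels, from 62.5% to 95.8% in control buds of week 0 and from 62.7% to 96.4% in those of week 3. Soltu.DM.03G001890 had its transcript Soltu.DM.03G001890.1 at 37%, 79.8%, 100% and 100% at week 9, against 0%, 0%, 0% and 11.9% at week 6, and passed the F test (edgeR adjusted p = 0.0121) but not the Simes test (adjusted p = 0.165 in edgeR). Its share also varied widely between replicates elsewhere, from 0% to 91.5% in control buds of week 0, from 11.1% to 92.5% in those of week 12 and from 0% to 100% in ethylene buds of week 6.

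**Figure D5:**
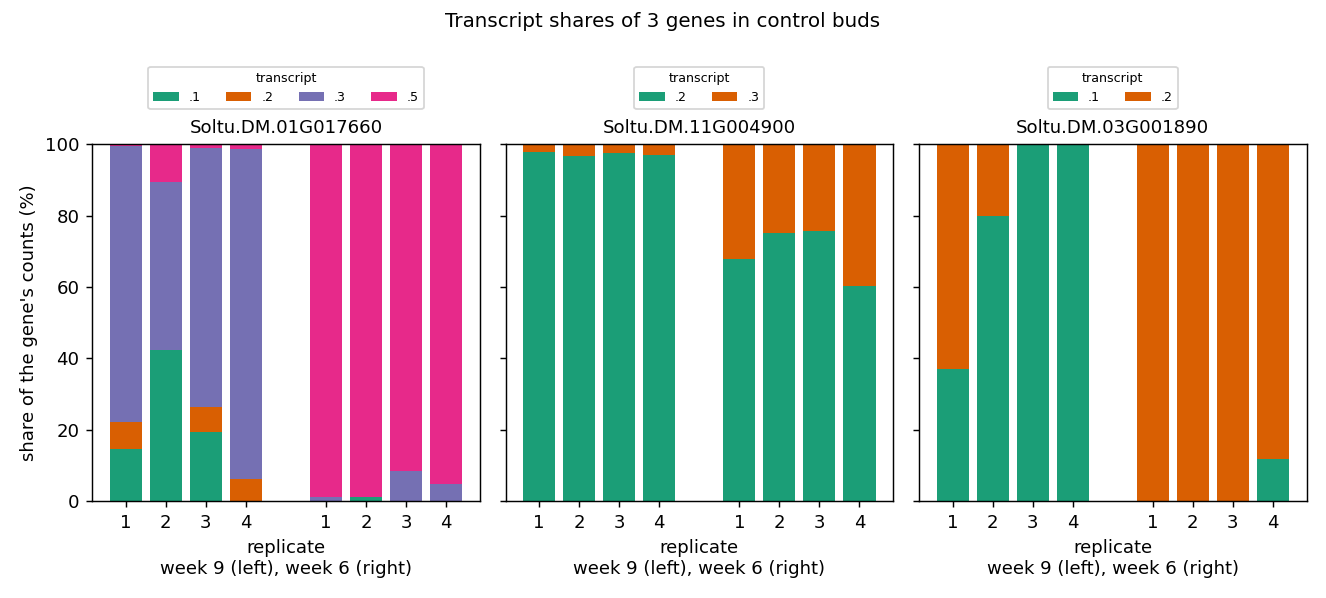
Share (%) of each gene's counts held by its transcripts in the 4 control bud libraries of week 9 (left bars) and the 4 of week 6 (right bars), for 3 genes; colours mark transcripts by the last number of their ID. Soltu.DM.01G017660.5 holds 91.6% or more in each week 6 library and 10.6% or less in each week 9 library.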

How the data were processed

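RNA of primary bud and flesh was purified with a Qiagen RNeasy Plant Mini kit and sequenced, per the labels' protocols. Trimmomatic, HISAT2, SAMtools and StringTie were used, per the submitters' processing notes, which give no version. Not given in the sources used here are the genome build, the annotation and the treatment of shared or antisense reads. The authors deposited whole-number counts per gene (32878 genes) and per transcript, without normalization. A row that names no gene, 1.76% to 2.26% of the counts in the 8 libraries, was left out. None of the IDs matched the RefSeq gene table (0 matches).

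CPM were scaled by trimmed means of M-values. The test across genes was the quasi-likelihood test of edgeR 4.0.16 (R 4.3.3; minimum count 10, minimum total 15, adjusted p under 0.05), with the 68 libraries of a tissue in one fit (51 residual degrees of freedom) or all 136 for bud against flesh; transcript usage was tested with diffSpliceDGE. The storage position used log2(CPM + 2). The steps were tested on simulated data, where the gene test and the usage F test made more wrong calls than the threshold allows. Named in each comparison are up to 2 higher and 2 lower IDs: among genes past the threshold, with 5 CPM or more in the higher week and 4 against 4 libraries apart, the one with the largest log2 difference and the one with the largest difference in mean CPM. For transcript usage, the genes with the smallest adjusted p and the largest shift of a share, at 5 CPM or more, are named. Members, lists and tests were chosen with earlier results of these data known. Alternatives were DESeq2 1.42.0 (test and size factors), no filter, fits of fewer groups, a replicate block, libraries left out, and libraries thinned to 24.4M counts (M, units of 1e6). Replicate numbers were not treated as pairs. Bounds and floors cover counting error only.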

Additional observations from a re-analysis of the deposited data

Results flagged for a closer look

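The change from week 6 to week 9 differed between control and ethylene buds, by the test of that difference, for 1515 genes, and between control bud and control flesh for 674. Between control and ethylene buds the difference of changes was 2.67 for Soltu.DM.06G027310, 0.96 for Soltu.DM.04G027270, -6.66 for Soltu.DM.12G001560 and -1.12 for Soltu.DM.09G027700 (log2). Between bud and flesh it was 0.92 for Soltu.DM.04G027270, -1.98 for Soltu.DM.01G001550 and -1.46 for Soltu.DM.09G027700, and for Soltu.DM.01G019850, with no count in week 9 flesh, edgeR's adjusted p was 0.0132.

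In 78 groups of 4 values, 13 had 1 library far from the other 3 by Dixon's criterion. Chance gives this in about 1 of 20 groups of normally distributed values. That rate is no measure here, since some flagged groups hold several values at 0. Some of the 78 held 4 equal values and could not be flagged. Several of the flagged values come from the same genes or libraries. In week 9 control buds the flagged libraries were replicate 1 for Soltu.DM.04G027270 (12200 CPM) and Soltu.DM.05G025110 (1190 CPM), replicate 3 for Soltu.DM.12G001560 (0.386 CPM), and replicate 2 for the share of transcript Soltu.DM.01G017660.5 (10.6%). The criterion was applied to rounded values. For Soltu.DM.05G025110 the other libraries all round to 1160 CPM, so its flag may rest on rounding. Replicate 1 of week 9 also had the largest total (45.7M counts). The highest share of counts in the 10 leading genes at week 9 was 7.31%. In week 6 control buds they were replicate 1 for Soltu.DM.09G027700 (9310 CPM), replicate 2 for transcript Soltu.DM.01G017660.1 (1.15%) and replicate 4 for Soltu.DM.03G001890.1 (11.9%) and Soltu.DM.03G001890.2 (88.1%). The lowest share of counts at week 6 of the genes called lower was 12.4%. In week 6 ethylene buds, replicate 1 was high for Soltu.DM.12G001560 (14.2 CPM) and Soltu.DM.01G019850 (498 CPM).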

How the results depend on the processing

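The number of genes called between weeks 9 and 6 of control buds was 3950 to 4430 when each of the 8 libraries was left out in turn, 5121 by DESeq2's test, 5308 in a fit of the 8 libraries alone and 3962 when the libraries were thinned to 24.4M counts, an alternative chosen after seeing the data. The named genes of that comparison kept their direction and call in every alternative run. Over all comparisons, named genes lost their call in 26 of 380 alternatives and reversed in 0; 13 of the losses were of Soltu.DM.04G027270 in the difference from the step before, 10 of Soltu.DM.09G027700 in the difference from ethylene buds and 3 of Soltu.DM.12G001560 in the difference from the step after. The first of these passed at an edgeR adjusted p of 0.0408 and lost the call in all 12 fits without 1 library (0.0719 to 0.201).

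Counts moved by more than 1.5 times as follows. Without replicate 1 of the buds of week 17 out of ethylene, the difference between control and ethylene buds had 2870 genes, the change under ethylene 675 and the difference between bud and flesh 1087. In fits of only the groups compared, the change under ethylene had 96 genes, the change in flesh 6193 and the difference between bud and flesh 2026. DESeq2's test called 764 genes under ethylene. Transcript usage had 31 genes by the Simes test, 36 in the 8 libraries alone and 354 with the older estimate of the spread, also chosen after seeing the data. The cause of these moves was not tested. Leaving out 1 library at a time gave 1161 to 1541 genes for the difference from ethylene buds, 453 to 752 for the difference from flesh, 48 to 186 genes under ethylene and 99 to 173 for transcript usage, where 2 libraries, replicate 1 of each week, moved it by more than 1.5 times.

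Replicate numbers were not taken as pairs: same-numbered libraries of weeks 9 and 6 had correlations of 0.383, 0.097, 0.045 and 0.445 in their deviations, and not every library was closest to its own number. Replicate 1 of week 9 had -0.412 with replicate 4 of week 6. Replicate 4 of week 9 had -0.377 with replicate 1 of week 6. With the second principal component, these values show an order by replicate number shared by both weeks. Its source was not tested. With a replicate block, 4799 genes passed between the weeks, and 1622 in the difference from ethylene buds, 9233 and 7213 in the differences from the steps before and after, 7343 for week 12 against week 3, 12249 for week 18 against week 0, 190 under ethylene, 3365 in flesh, 721 in the difference from flesh and 175 for transcript usage; the storage position then differed by 0.069 (exact sign-flip test over 4 pairs, p = 0.125, the smallest it can give). The storage position differed by 0.051 to 0.086 without 1 library, with exact permutation p of 0.0571 or more, and fits that left out a library of week 9 or 6 could not pass 0.05, since 3 against 4 allows no p below 0.0571; these and the sign-flip test say nothing about stability. Fewer low genes were called: 3.98% of genes in the lowest of 4 equal sets by mean level, against 36.9% in the highest. The part that depth has in this was not tested.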
